A study of Mus musculus with 12 samples.

Results

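Ctla2a encodes a small protein that resembles the pro-region of cathepsin L and inhibits cysteine proteases of that family. It was found by its symbol in the first column of every file, where it is 1 of 3534 listed genes. The gene was chosen by its FPKM values, which stood higher in the high-fat libraries than in the normal-diet libraries, so that difference is given as a description and carries no test.

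The series measured RNA of mouse aorta in 12 samples of 4 groups, deposited as 3 files each. WT samples were labelled as wild type on the normal diet, and HFD samples as wild type on a diet with 60% of its energy as fat, both for 12 weeks. HAPN samples carry the same genotype and diet labels as HFD, and the sources used here do not say what sets them apart. HSAPN samples are labelled as APPL1 knockdown on the high-fat diet, without the method or the cells it acted in. HFD replicates 1 and 2 were deposited with identical values and count as 1 library, called the duplicated HFD library here. This leaves 3 WT, 2 HFD, 3 HAPN and 3 HSAPN libraries. Nothing in the labels says whether replicates came from separate animals, so p-values measure only the spread between these samples, which may be technical. Appl1 was not analysed here, so the knockdown was not checked in its target gene.

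Cathepsin L and its relatives are made as inactive precursors whose pro-region lies across the active site until it is cleaved off. Ctla2a and its neighbour Ctla2b resemble such a pro-region without the protease that normally follows it. The Ctla2 transcripts were first described in activated T cells and mast cells, and in many mouse tissues Ctla2a is a transcript of endothelial cells, which line the aorta. In RNA from whole aorta, fewer cells of a type and less RNA per cell cannot be told apart.

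Ctla2a (ENSMUSG00000044258.10) lies on the minus strand of chromosome 13 at chr13:60934155-60936625 in GRCm38, by GENCODE M21. Ctla2b (ENSMUSG00000074874.10) lies on the same strand at chr13:60895350-60897447, with its start 39178 bases from that of Ctla2a. The 250 bases before each start are shown because the pair share most of this sequence and differ in level by far. They come from RefSeq on GRCm38.p6, at chr13:60936626-60936875 for Ctla2a and chr13:60897448-60897697 for Ctla2b, both read 5′ to 3′ on the minus strand. Capitals mark bases that differ between the aligned sequences or stand against a gap.
Ctla2a: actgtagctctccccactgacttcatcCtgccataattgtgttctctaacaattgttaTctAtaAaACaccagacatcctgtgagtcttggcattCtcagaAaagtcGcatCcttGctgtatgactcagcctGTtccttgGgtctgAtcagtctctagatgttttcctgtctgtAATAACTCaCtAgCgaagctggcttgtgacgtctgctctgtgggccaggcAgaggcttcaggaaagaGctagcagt
Ctla2b: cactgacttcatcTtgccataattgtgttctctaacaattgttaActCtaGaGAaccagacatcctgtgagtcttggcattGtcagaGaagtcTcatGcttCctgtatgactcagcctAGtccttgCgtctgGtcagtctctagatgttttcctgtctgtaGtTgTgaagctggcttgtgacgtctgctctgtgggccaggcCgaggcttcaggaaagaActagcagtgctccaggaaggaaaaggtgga
Of 228 aligned positions, 208 (91.2%) were identical, with 20 mismatches and 8 positions against a gap.

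Motif letters were searched on both strands of these windows. The AP-1 letters TGANTCA matched 1 time in each window, and 6.87% of the 250-base windows of 27025 genes hold them. The cyclic AMP response element core TGACGT also matched 1 time in each, against 6.56% of windows. The GATA letters AGATAA matched 1 time in Ctla2a and not in Ctla2b (10.3% of windows), and the ETS letters AGGAAG matched 2 times in Ctla2b and not in Ctla2a (29.2% of windows). Neither window held the retinoic acid receptor core AGGTCA, the forkhead letters GTAAACA or the KLF letters CCACCC. A match describes letters only.

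Levels here are FPKM, read numbers scaled to transcript length and library depth, as the authors deposited them. Taken as FPKM, the values give libraries of 15610000 to 17840000 reads, by the depth recovered from low values. On that reading the 3534 listed genes took 12.0 to 17.6% of the reads. A TPM scaling, named below, would give other depths. Fat, airway and heart markers differed between libraries of the same group. In the duplicated HFD library 14 adipocyte markers summed to 1921 FPKM and 3 airway markers to 6870 FPKM, against 50.6 and 11.5 FPKM in HFD replicate 3.

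Ctla2a was lowest in the aortas of the normal-diet group and highest in HFD. In WT it stood at 9.08, 7.16 and 15.8 FPKM in replicates 1, 2 and 3. The duplicated HFD library held 35.5 FPKM, and HFD replicate 3 held 41.6 FPKM. HAPN replicates 1, 2 and 3 held 22.4, 20.6 and 31.2 FPKM, and HSAPN replicates 28.3, 26.0 and 19.2 FPKM. The highest WT library, replicate 3, lay below the lowest high-fat library, HSAPN replicate 3, so WT and the 8 high-fat libraries did not overlap, while HAPN and HSAPN overlapped each other. As background, 1.75% of the 1659 genes tested lay wholly above WT in the 8 high-fat libraries.

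**Figure D1:**
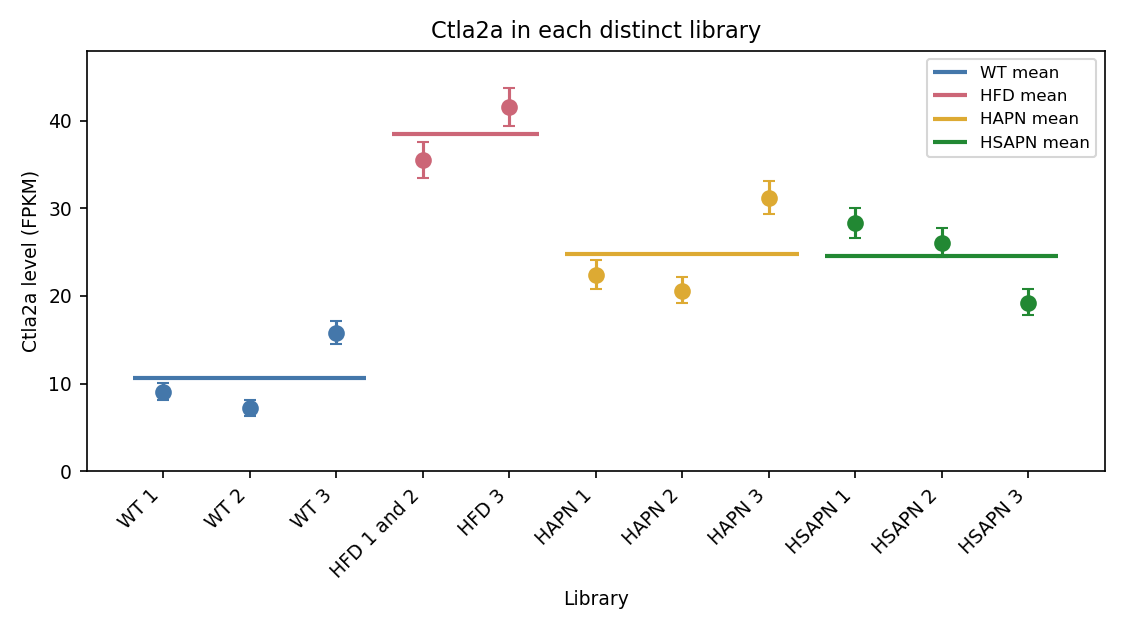
Ctla2a level in FPKM (y axis, linear from 0) in each of the 11 distinct libraries (x axis), coloured by group. Bars on the points are 95% exact Poisson intervals of the read count recovered from the values taken as FPKM, and horizontal lines are group means. The 3 WT points lie between 7.16 and 15.8 FPKM, below all 8 high-fat points, which lie between 19.2 and 41.6 FPKM.

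Taken as FPKM, with reads recovered as above, these values rest on many reads. The transcript had 269 to 566 reads in the WT libraries and 672 to 1459 reads in the high-fat libraries. For the lowest library, WT replicate 2, the 95% exact Poisson interval was 6.32 to 8.06 FPKM, and for the highest, HFD replicate 3, it was 39.5 to 43.8 FPKM. Such intervals cover counting error only. Within WT, replicate 3 stood apart, with an interval of 14.5 to 17.1 FPKM that lies above those of both other libraries.

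Group means followed the order HFD, HAPN, HSAPN, WT. Ctla2a averaged 38.5 ± 4.29 FPKM in HFD (SD, n = 2), 24.7 ± 5.68 FPKM in HAPN (SD, n = 3), 24.5 ± 4.72 FPKM in HSAPN (SD, n = 3) and 10.7 ± 4.52 FPKM in WT (SD, n = 3). The HFD mean was 3.61 times, the HAPN mean 2.32 times and the HSAPN mean 2.30 times the WT mean. HAPN and HSAPN are neighbours in that order that differ by far less than their spread. Relative to its mean, the gene varied most within WT (SD 42.3% of the mean) and less within HAPN (22.9%) and HSAPN (19.3%).

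On the log2(FPKM + 1) scale, where a fold is slightly understated, Ctla2a was higher than in WT by 1.82 (SE 0.318) in HFD, by 1.19 (SE 0.285) in HAPN and by 1.18 (SE 0.285) in HSAPN. Weighing the 3 high-fat groups equally, the difference was 1.40 (SE 0.237). These comparisons share the WT libraries and are not independent of each other, and they are the contrast for which the gene was chosen. Of the genes tested, 12.1% lay wholly above WT in HFD, 7.11% in HAPN and 10.3% in HSAPN. By size of the difference over all high-fat groups, Ctla2a ranked 33rd from the top of the 1659 genes. Without WT replicate 3 the difference between high-fat and WT libraries was 1.69.

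**Figure D2:**
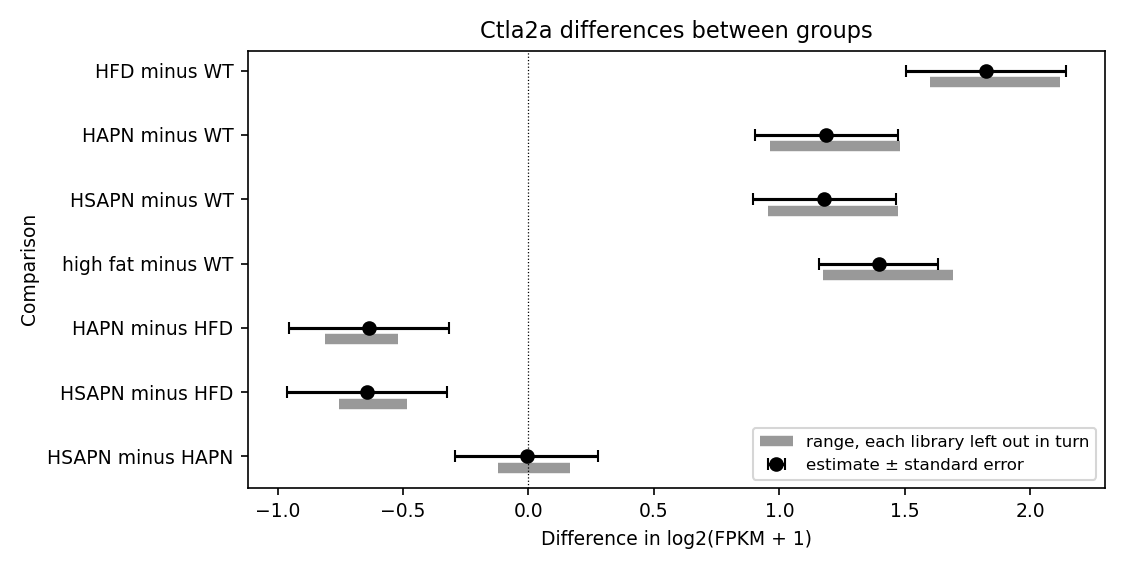
Difference of Ctla2a between groups in log2(FPKM + 1) (x axis) for 7 comparisons (y axis), as the estimate with its standard error (black) and the range when each of the 11 libraries is left out in turn (grey). The 4 comparisons with WT lie between 1.18 and 1.82, those of HAPN and HSAPN with HFD near -0.64, and HSAPN against HAPN at -0.01.

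Comparisons among the high-fat groups were not the basis of the choice, so these 3 were tested, with limma on log2(FPKM + 1) and Benjamini-Hochberg adjustment over 1659 genes. HAPN, whose labels equal those of HFD, did not differ from it past the threshold of 0.05. The log2 difference was -0.64 (SE 0.318, 95% interval -1.35 to 0.08, limma adjusted p = 0.542). Both HFD libraries lay above all 3 HAPN libraries, and 19.8% of tested genes were likewise wholly lower in HAPN. In that comparison limma called 3 genes (0.181%).

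Libraries labelled as APPL1 knockdown also lay below HFD without passing the threshold. Here the difference, HSAPN minus HFD, was -0.64 on the log2 scale (SE 0.318, 95% interval -1.36 to 0.07, limma adjusted p = 0.886). Again both HFD libraries lay above the 3 HSAPN libraries, as 14.2% of tested genes did. Limma called 0 genes here (0%), with 67 at an unadjusted p under 0.05, and limma-voom on recovered reads also called 0. Scaling each library by the median ratio of its genes brought the duplicated HFD library from 35.5 to 25.5 FPKM. After scaling it lay below HAPN replicate 3 (34.3 FPKM) and below HSAPN replicates 1 and 2 (29.8 and 27.9 FPKM). The differences from HFD were then -0.36 for HAPN and -0.42 for HSAPN, and the median over all tested genes moved from -0.24 to -0.01 and from -0.18 to 0.01.

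Between HSAPN and HAPN, which differ in their labels by the knockdown, the levels were close. Ctla2a differed by -0.01 on the log2 scale (SE 0.285, 95% interval -0.65 to 0.63, limma adjusted p = 0.999). In fold terms the interval, not adjusted for the number of genes, runs from 0.639 to 1.55 times the HAPN level. With 3 libraries a group, changes within those bounds remain possible. Limma called 2 genes (0.121%) in this comparison. The sign of so small a difference was not stable: it was 0.17 without HAPN replicate 3 and 0.15 without HSAPN replicate 3.

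The scatter of Ctla2a within groups was ordinary for its level. Its within-group SD was 0.366 on the log2(FPKM + 1) scale, against a median of 0.347 over all tested genes and of 0.329 over the 314 genes within 1 log2 unit of its mean. Of those 314 genes, 183 scattered less. By mean level Ctla2a was the 234th of the 1659 genes tested.

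Endothelial markers stood higher in the high-fat libraries too. Of 29 listed endothelial genes, 2 were in the files: Gpihbp1, which carries lipoprotein lipase to the capillary lumen, and Mmrn2, an endothelial matrix protein. Gpihbp1 was 8.19, 9.83 and 34.2 FPKM in WT replicates 1, 2 and 3, and 24.6 to 56.2 FPKM in the high-fat libraries. Mmrn2 was 1.16, 2.32 and 7.96 FPKM in WT and 3.09 to 9.71 FPKM in the high-fat libraries. For both genes WT replicate 3, the WT library richest in Ctla2a, lay among the high-fat libraries.

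Set against these endothelial markers, the Ctla2a difference was smaller. Ctla2a exceeded their mean log2 level by 1.18, 0.44 and -0.08 in WT replicates 1, 2 and 3, by 1.24 and 1.14 in HFD, by 0.19 to 1.19 in HAPN and by 0.21 to 0.85 in HSAPN. WT therefore overlapped every high-fat group on this measure. The difference between high-fat and WT libraries was 0.28 (SE 0.293), against 1.40 for the level as deposited, and -0.02 without WT replicate 3 (SE 0.298). By group it was 0.68 for HFD (SE 0.393), 0.19 for HAPN (SE 0.351) and -0.039 for HSAPN (SE 0.351). The measure rests on 2 markers, and the other 27 of the list were not analysed here.

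In high fat against WT limma called 1 gene, lower, of 1659 (0.0603%), and neither endothelial marker. That count turned on WT replicate 3: without it limma called 240 of 1617 genes, 132 higher and 108 lower, among them both Gpihbp1 and Mmrn2.

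**Figure D3:**
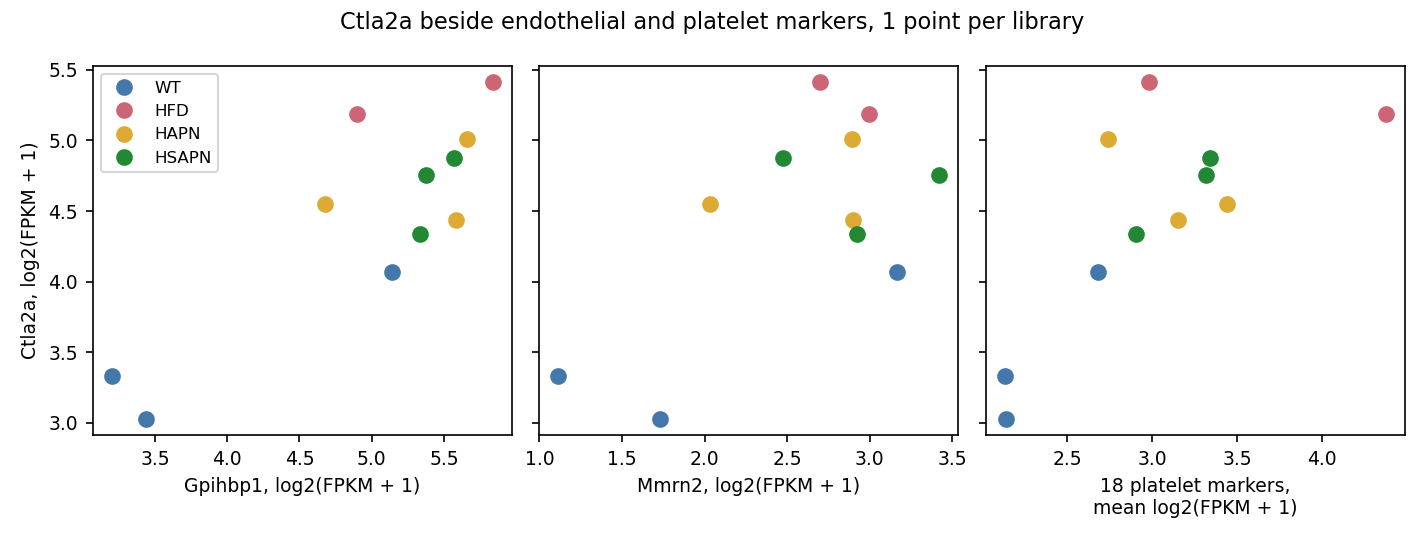
Ctla2a (y axis) beside Gpihbp1, Mmrn2 and the mean of 18 platelet markers (x axes, all in log2(FPKM + 1)), 1 point per library, coloured by group. In each panel WT replicates 1 and 2 lie at the lower left, and for Gpihbp1 and Mmrn2 WT replicate 3 lies among the high-fat libraries on the x axis.

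Platelet and red cell genes also stood higher with Ctla2a. Of 21 listed platelet and megakaryocyte genes 20 were in the files, none of them at 0 in any library, and 18 were tested. All 18 had a positive log2 difference between high-fat and WT libraries, with a median of 0.90 against -0.06 over all tested genes. By limma 0 of them passed the test, and 7 did, all higher, without WT replicate 3. In that setting 132 of all 1617 genes tested were called higher. The summed level of the 20 genes in the files was 127 to 198 FPKM in WT, 291 and 758 FPKM in HFD, 213 to 349 FPKM in HAPN and 246 to 342 FPKM in HSAPN. Relative to the mean log2 level of the 18 tested genes, the Ctla2a difference between high-fat and WT libraries was 0.39 (SE 0.348), and 0.50 without WT replicate 3 (SE 0.421). By group it was 0.46 in HFD (SE 0.467), 0.39 in HAPN (SE 0.418) and 0.31 in HSAPN (SE 0.418).

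Between the HFD libraries, platelet genes and Ctla2a ran in opposite order. The duplicated HFD library had the higher platelet sum, 758 against 291 FPKM, and the lower Ctla2a level. For deviations from group means, the median Pearson r with Ctla2a was 0.12 over the 18 tested platelet genes and 0.39 over the 9 tested erythrocyte genes. For levels over the 11 libraries these medians were 0.71 and 0.64. Ppbp, a platelet chemokine, was 17.8 to 26.2 FPKM in WT and 22.5 to 205 FPKM in the high-fat libraries, so the ranges overlapped. Erythrocyte genes, 9 tested of 11 in the files, were positive in 9 (median log2 1.44), with 0 past the test. Without WT replicate 3, 5 of them passed, beside 132 of all 1617 genes called higher. Without WT replicate 1 or without the duplicated HFD library 8 of the 9 were positive. The sum of the 11 erythrocyte genes in the files was 425, 429 and 3238 FPKM in WT replicates 1, 2 and 3 and 1328 to 4919 FPKM in the high-fat libraries. WT replicate 3 thus had the WT group's highest Ctla2a, Gpihbp1, Mmrn2 and erythrocyte levels together. The part of blood and endothelial transcripts in the Ctla2a difference was not tested.

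Markers of the cells in which the Ctla2 transcripts were first described were read too. T and natural killer cell markers, 5 of 21 in the files, summed to 3.12 to 32.4 FPKM in WT, 12.9 and 15.0 FPKM in HFD, 6.71 to 92.1 FPKM in HAPN and 18.9 to 36.1 FPKM in HSAPN. Their sum was highest in the library of its group richest in Ctla2a in WT and HAPN (replicate 3 of each) and in HFD (replicate 3), but not in HSAPN. There replicate 2 had the highest sum, 36.1 FPKM, against 26.9 FPKM in replicate 1, which had the most Ctla2a. HFD, with the most Ctla2a, had lower sums than WT replicate 3. Mast cell markers, 7 of 14 in the files, summed to 1.45 to 10.2 FPKM in WT and 2.53 to 12.7 FPKM in the high-fat libraries, and 4 of the 7 were at 0 in at least 1 library. The 5 tested T and natural killer cell genes were all positive in high-fat against WT libraries, with a median log2 difference of 0.69 and 0 past the test. That median was 0.38 without WT replicate 1 (4 of 5 positive) and 1.21 without WT replicate 3. For deviations from group means, the median Pearson r of these 5 genes with Ctla2a was 0.76, against -0.05 over all tested genes. The 4 tested mast cell genes divided evenly (median 0.01, 0 past the test), with medians from -0.32 without WT replicate 1 to 0.88 without WT replicate 3, where 2 were tested. In that last setting Cpa3 was 1 of 132 genes called higher in the high-fat libraries, of 1617 tested.

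Most smooth muscle markers were lower in the high-fat libraries, to an extent set by single libraries. Of 9 tested genes 8 had a negative log2 difference, none past the test, with a median of -1.01, or -0.45 without WT replicate 2. The sum of the 10 smooth muscle markers in the files was 709, 2895 and 754 FPKM in WT replicates 1, 2 and 3 and 251 to 920 FPKM in the high-fat libraries. Fibroblast genes were negative in 5 of 6 (median -0.59), with 0 past the test.

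Other lists depended on 1 library more strongly. Macrophage genes were positive in 4 of 4 (median 0.47, 0 past the test), but in 3 of 4 without WT replicate 1 (median 0.21) or without the duplicated HFD library (median 0.26), and their median was 0.71 without WT replicate 3. Adipocyte genes had no stable direction: 10 of 12 were negative (median -0.78), 7 of 12 without WT replicate 3 (median -0.23) and 5 of 12 without HFD replicate 3 (median 0.06). Their median was -1.69 without the duplicated HFD library and -1.66 without WT replicate 1. All 3 airway genes were negative (median -3.07), with a median of -1.83 without HFD replicate 3. The 3 cardiac genes were negative too (median -1.53), with medians from -0.76 without HFD replicate 3 to -2.41 without the duplicated HFD library and -2.32 without WT replicate 1. No lymphatic endothelial or B cell marker of the lists was analysed here.

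Ctla2b, the paralog, was near the limit of counting. By the reads recovered as above, it had 2, 1 and 12 reads in WT replicates 1, 2 and 3, and 8 and 8 in HFD. In HAPN it had 1, 2 and 5, and in HSAPN 9, 1 and 6. Its level was 0.169 ± 0.209 FPKM in WT (SD, n = 3) and 0.174 ± 0.115 FPKM in the high-fat libraries (SD, n = 8), and it stayed below the filter for testing. Per length, Ctla2a was 38.5 to 787 times as abundant as Ctla2b, and in 5 libraries the divisor rests on 1 or 2 reads. Summed over libraries, 1169 reads fell on Ctla2a and 15 on Ctla2b in WT, and 7894 and 40 in the high-fat libraries. The WT and high-fat ranges of Ctla2b overlapped, and a diet difference in it was not detectable at this depth.

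Sequence shared by the paralogs bears on how far their counts can be told apart. Of the 50-base stretches in Ctla2a transcripts, 11.4% also occur in Ctla2b transcripts, and of the 100-base stretches 1.11%. GENCODE M21 has a further gene model, Gm49391, that runs over both genes and holds 18.2% of the Ctla2a 50-base stretches. How reads from such stretches were counted, and whether strand was used, the sources used here do not state, so part of the Ctla2a count is uncertain. Of 58 annotated genes starting within 1 Mb, 3 were in the files: Ctla2a, Ctla2b and Gas1, a growth arrest gene 759260 bases away. Gas1 averaged 8.43 FPKM in WT, 17.4 in HFD, 8.62 in HAPN and 12.2 FPKM in HSAPN, and its Pearson r with Ctla2a over 11 libraries was 0.60.

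Few of the proteases that Ctla2a could meet were in the table. Of 16 listed cathepsins and relatives, 1 was in the files, and none of 11 genes of the placental cathepsin cluster that neighbours Ctla2a. Ctsk, the collagen-degrading cathepsin K, averaged 33.2 FPKM in WT, 20.9 in HFD, 29.8 in HAPN and 28.1 FPKM in HSAPN. In the HFD libraries it stood at 19.2 and 22.6 FPKM, and HAPN replicate 2 at 22.3 FPKM lay between them. Its Pearson r with Ctla2a was -0.67 over 11 libraries. Its log2 difference between high-fat and WT libraries was -0.35 and did not pass the test.

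Few genes of a list drawn up as other cysteine protease inhibitors could be read here. Whether each listed protein inhibits such proteases was not examined. Of 27 listed, 5 were in the files and 1 was tested, Ahsg, the liver glycoprotein fetuin-A. Its highest level was 24.6 FPKM, in WT replicate 3, above Ctla2a in that library, and its highest level on high fat was 5.54 FPKM. Ctla2b, the secreted cystatin Cst6 and the plasma proteins Hrg and Kng2 averaged under 1 FPKM in every group. Per length, Ctla2a stood above all 5 of these in each high-fat library, and the rest of the list was not analysed here.

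Genes of retinoic acid handling and response, another listed group, were read beside Ctla2a. Of 21 listed, 7 were in the files, 3 were tested and 0 passed in high-fat against WT libraries by limma. Rbp4, the plasma retinol carrier, averaged 46.5 FPKM in WT, 28.1 in HFD, 25.1 in HAPN and 21.9 FPKM in HSAPN. Rxrg, a retinoid X receptor, lay between 0.111 and 3.23 FPKM in all libraries.

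Of 1237 named genes whose log2(FPKM + 1) averaged 1 or more, Angptl4 ran most like Ctla2a across the 11 libraries. Angptl4 encodes a secreted inhibitor of lipoprotein lipase that fatty acids induce, and its Pearson r was 0.95 (Spearman rho 0.92). It was 4.14, 3.59 and 16.0 FPKM in WT, 36.3 and 28.3 FPKM in HFD, 13.6 to 19.8 FPKM in HAPN and 16.8 to 21.5 FPKM in HSAPN. The r was 0.83 for deviations from group means, 0.84 over the 8 high-fat libraries and 0.81 without WT replicates 1 and 2, the libraries farthest from the Ctla2a median. Likeness was the reason for naming these genes, so no p is given, and the libraries also differ in the cell markers given above.

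The next 5 were Gng11 (r 0.91), a G protein gamma subunit that is also on the platelet list, the lipid droplet coat gene Plin2 (0.90), Hrct1 (0.90), the G protein regulator gene Rgs10 (0.89) and Tmem59l (0.87). Plin2 was 18.4 to 30.9 FPKM in WT and 31.5 to 57.0 FPKM in the high-fat libraries, without overlap. Gng11 averaged 47.5 FPKM in WT, 97.9 in HFD, 69.9 in HAPN and 80.3 FPKM in HSAPN. Without WT replicates 1 and 2 the r of Plin2 was 0.66 and that of Gng11 0.76, while Hrct1 kept 0.85 and Tmem59l 0.82. In all, 29 of the 1237 genes (2.34%) had an r over 0.8, against a median r of -0.05.

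Genes that ran opposite to Ctla2a were Optc (r -0.92), which encodes the matrix proteoglycan opticin, the stress kinase gene Mapk13 (-0.87), the vitamin D receptor gene Vdr (-0.87) and the kinase gene Pak6 (-0.87). Optc was 2.80, 8.41 and 1.53 FPKM in WT and 0.0934 to 1.29 FPKM in the high-fat libraries. Mapk13 averaged 26.8 FPKM in WT and 12.7, 14.2 and 13.8 FPKM in HFD, HAPN and HSAPN. For Mapk13 and Vdr the relation rested on WT replicates 1 and 2, without which r was -0.47 and -0.48.

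**Figure D4:**
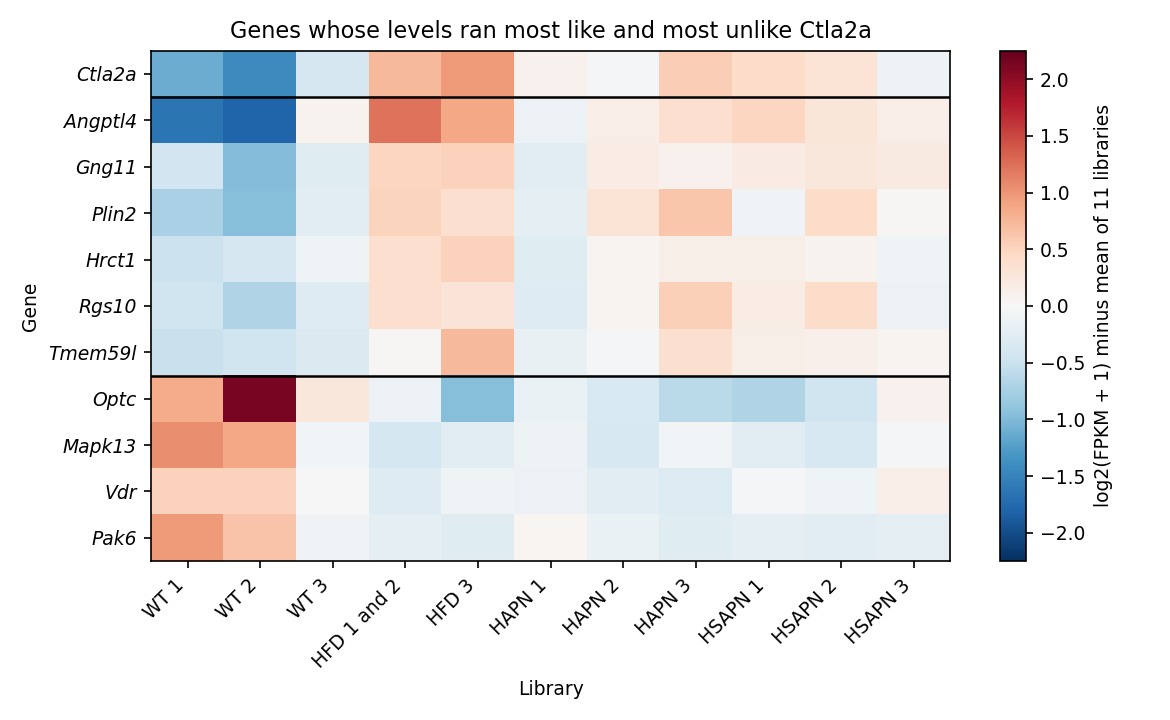
Levels of Ctla2a, the 6 genes of highest and the 4 of lowest Pearson r with it (rows) in the 11 libraries (columns), as log2(FPKM + 1) minus the gene's mean over the libraries (colour). In WT replicates 1 and 2 the 6 genes lie below and the 4 genes above their means; Angptl4, directly under Ctla2a, has an r of 0.95.

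Within groups, where the diet does not enter, another set ran closest to Ctla2a. The 6 highest r of deviations from group means belonged to Rnf145 (0.91), a ubiquitin ligase gene, the mast cell carboxypeptidase gene Cpa3 (0.91), the transcriptional repressor gene Bcl6b (0.89), the galactosyltransferase gene B4galt5 (0.84), the stress cytokine gene Gdf15 (0.83) and Angptl4 (0.83). Angptl4 was the single gene in both sets of 6. Cpa3 was 0.979, 0.700 and 3.92 FPKM in WT, 2.49 and 4.60 FPKM in HFD, 1.63 to 2.94 FPKM in HAPN and 1.79 to 3.16 FPKM in HSAPN. Bcl6b was 2.63, 2.41 and 8.64 FPKM in WT and 6.51 to 14.4 FPKM in the high-fat libraries. In each of these 6 genes WT replicate 3 was the highest WT library. Across levels in the 8 high-fat libraries the r of Rnf145 was -0.30 and that of B4galt5 -0.15. For these 2 genes likeness within groups did not extend to the order of the high-fat libraries. Over the same 8 libraries the r was 0.80 for Cpa3, 0.53 for Gdf15 and 0.34 for Bcl6b. Without WT replicates 1 and 2 the r of levels was 0.35 for Cpa3, 0.33 for Bcl6b and 0.34 for Gdf15. It was then -0.24 for Rnf145 and -0.19 for B4galt5, against 0.81 for Angptl4.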

How the data were processed

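Each file holds 1 value per gene symbol in FPKM, as deposited by the authors. Per the submitters' processing notes the genome build was GRCm38, and the tools named there, without a role, are DESeq 1.8.3 and featureCounts 1.5.0-p3. The sources used here do not give the aligner, annotation release, strand setting or the rule that chose the 3534 genes. Per the labels' protocols, RNA was extracted with TRIzol and libraries made with a directional kit. With GENCODE M21 exonic lengths (3407 symbols matched), 96.1 to 97.2% of values worth at most 20 reads came out whole within 0.1 of a read. A TPM scaling would give whole reads too, at other depths.

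The members and lists were chosen with earlier results of these data known. A duplicated symbol was left out, and 4 symbols read as dates could not serve as names. The 1659 genes reaching 1 FPKM in 3 or more libraries were fitted with limma 3.58.1 (R 4.3.3, trend) on log2(FPKM + 1) with 4 group means, and called at an adjusted p of 0.05. The script was tested on simulated data. Named were Ctla2a, all genes of the cathepsin, inhibitor and retinoic acid lists, up to 3 of each marker list, genes within 1 Mb, and the genes of highest (6) and lowest (4) r to Ctla2a and highest r of deviations (6), without unnamed models, pseudogenes and receptor segments. Some genes named by it are given only within counts, and 1 is not reported here. Tables used Python 3.11.15, pandas 2.3.3, NumPy 2.4.6 and SciPy 1.17.1, and figures matplotlib 3.10.9. Alternatives were pseudocount 0.1, no or a stricter filter (6 libraries), each library left out, identical files entered separately, median-ratio scaling, a replicate block, the compared groups alone, array weights, limma-voom and levels relative to markers; high-fat libraries as 1 group, list counts with each library left out, and marker-relative levels without WT replicate 3 were added after seeing the data.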

Additional observations from a re-analysis of the deposited data

How the results depend on the processing

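Differences of Ctla2a from WT kept their direction in the 20 alternatives that used its own level (high fat, 1.17 to 1.69 over the libraries left out; HFD, 1.60 to 2.12; HAPN, 0.96 to 1.48; HSAPN, 0.96 to 1.48). Relative to endothelial markers they were 0.28, 0.68, 0.19 and -0.039, and relative to platelet markers 0.39, 0.46, 0.39 and 0.31. No setting brought a comparison among high-fat groups past the threshold (limma adjusted p from 0.229 to 1). HAPN against HFD lay between -0.81 and -0.07 over all alternatives, and HSAPN against HFD between -0.75 and -0.15, the values nearest 0 being those relative to platelet markers. HSAPN against HAPN turned to 0.16 with array weights and lay between -0.12 and 0.17 when 1 library was left out.

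Counts of called genes changed, from 0 or by over 1.5 times, in 16 of 20 alternatives for high fat against WT, 17 for HAPN against HFD, 6 for HSAPN against HFD and 13 for HSAPN against HAPN, and the cause was not tested. For high fat against WT (1 gene) they were 0 with pseudocount 0.1, the stricter filter or median-ratio scaling, 3 with no filter, 8 with identical files separate, 263 with array weights, 5 with high-fat libraries as 1 group, and 0 to 240 over the libraries left out, the 240 without WT replicate 3. HAPN against HFD (3) gave 5 with no filter or median-ratio scaling, 10 with identical files separate, 0 with the stricter filter, the replicate block, these groups alone, array weights or limma-voom, and 0 to 6 with a library left out. HSAPN against HFD (0) gave 2 with no filter or identical files separate, 1 with these groups alone, and 0 to 3. HSAPN against HAPN (2) gave 1 with no filter or limma-voom, 0 with these groups alone, 79 with array weights, and 0 to 3.

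With the replicate number as a block, Ctla2a differed by -0.54 (HAPN against HFD), -0.55 (HSAPN against HFD) and -0.01 (HSAPN against HAPN), none past the threshold. Of 15 same-numbered pairs of libraries, 4 had deviations correlated over 0.1 (range -0.59 to 0.50). The duplicated HFD library was counted as number 1 here. Deviations from means of 2 or 3 libraries depend on each other, so this does not settle whether equal numbers mark a pairing. High fat against WT was not fitted with its groups alone, since it holds all groups.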
